A study of Mus musculus with 8 samples.

Results

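Endothelial and fibroblast marker genes were followed through 8 CEL-Seq libraries labelled as sorted mouse eosinophils. Of the 54446 genes in each deposited table, 10 were chosen by symbol, as known markers: Pecam1, Cdh5, Cldn5, Kdr and Flt1 for endothelium, and Col1a1, Col1a2, Col3a1, Dcn and Mgp for fibroblasts. The libraries came from C57BL/6 mice in a study of a murine asthma model, and CEL-Seq is an RNA-seq method that amplifies transcripts linearly and reads their 3' ends. There were 4 libraries of resident eosinophils (replicates 3 to 6), 2 of Siglec-Fint/CD101- eosinophils and 2 of SiglecFhi/CD101+ eosinophils, subsets named for the lectin Siglec-F and the surface protein CD101. The labels give no treatment, age, sex, tissue or animal for any group, so it is not known which of these the groups share; no p-value here covers more than sample-to-sample spread, part of which may be technical. All 10 genes had counts in all 8 libraries and passed the filter on low counts, as did 11828 genes in all.

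Endothelial cells line blood vessels, form the capillary bed of the lung in close contact with the alveoli, and are held together by cadherin and claudin junctions. They respond to vascular endothelial growth factor (VEGF) through the receptors encoded by Kdr and Flt1. Fibroblasts of the lung interstitium secrete fibrillar collagens, assembled from type I and type III chains, and the small proteoglycans and matrix proteins that arrange them. Eosinophils are leukocytes and are not known as a source of fibrillar collagen or of endothelial junction proteins, while Pecam1 is also carried by platelets and many leukocytes.

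All 10 are protein-coding genes, placed here by the GENCODE annotation of GRCm38, since the build behind the tables is not given in the sources used here. Pecam1 lies on chromosome 11 (106654217 to 106750628), Cdh5 on chromosome 8 (104101625 to 104144511) and Cldn5 on chromosome 16 (18776847 to 18778262). Kdr (75932827 to 75978458) and Flt1 (147561604 to 147726011) share chromosome 5. Col1a1 is on chromosome 11 (94936224 to 94953042), Col1a2 on chromosome 6 (4504814 to 4541544) and Col3a1 on chromosome 1 (45311538 to 45349706). Dcn is on chromosome 10 (97479609 to 97518143) and Mgp on chromosome 6 (136872435 to 136875823). The 3 gene models that overlap a member (Gm29682 at Cdh5, Gm43921 at Col1a2 and Gm47302 at Col3a1) had 0 counts in these libraries.

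Promoters from RefSeq (GRCm38.p6) were found for 5 of the 10 members, and 3 are shown: those of Flt1 and Kdr, the pair of VEGF receptors whose count ratio varied among libraries, and that of Col3a1, the member with the smallest p in any comparison. Each is the 250 bases before the start, 5′ to 3′ on the gene's strand, with capitals for any match on either strand to 3 short motifs. The core promoter element read by the TATA-binding protein was searched as TATAAA. The element bound by nuclear factor Y was searched as CCAAT, and the motif of ETS factors, a family with endothelial members, as AGGAAG.
Flt1 promoter, chr5:147726012-147726261, minus strand: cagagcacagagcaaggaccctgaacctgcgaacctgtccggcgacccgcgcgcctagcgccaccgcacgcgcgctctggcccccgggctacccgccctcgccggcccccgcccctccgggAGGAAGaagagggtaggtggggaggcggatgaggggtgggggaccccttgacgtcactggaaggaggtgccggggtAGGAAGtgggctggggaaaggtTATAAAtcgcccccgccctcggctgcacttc
Kdr promoter, chr5:75978456-75978705, minus strand: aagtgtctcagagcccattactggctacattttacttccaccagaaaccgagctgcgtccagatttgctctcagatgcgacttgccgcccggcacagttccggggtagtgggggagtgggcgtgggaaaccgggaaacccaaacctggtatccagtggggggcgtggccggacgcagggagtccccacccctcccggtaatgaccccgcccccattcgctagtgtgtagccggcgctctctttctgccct
Col3a1 promoter, chr1:45311288-45311537, plus strand: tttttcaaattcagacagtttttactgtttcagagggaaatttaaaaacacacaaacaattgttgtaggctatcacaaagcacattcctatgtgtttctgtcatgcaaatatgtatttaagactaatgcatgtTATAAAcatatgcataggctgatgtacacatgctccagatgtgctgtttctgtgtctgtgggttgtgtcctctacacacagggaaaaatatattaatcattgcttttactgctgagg
Flt1 held 2 AGGAAG matches and 1 TATAAA match 31 to 26 bases before the start, Col3a1 held 1 TATAAA match 117 to 112 bases before it, and Kdr, whose window reaches 3 bases into an annotated exon, held no match to these letters. Of 32851 RefSeq windows of this length, 12.4% held TATAAA, 33.9% held CCAAT and 29.5% held AGGAAG on either strand. The GC content was 70.4% for Flt1, 61.6% for Kdr and 35.2% for Col3a1. A match is a description of letters and was not related to the levels below.

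Total counts ran from 5600610 to 11583550 in resident and from 1513517 to 3109428 in subset libraries. Genes of the mitochondrial genome took 38.6% to 61.8% of counts in resident and 69.9% to 83.9% in subset libraries, so counts outside them were 2137819 or more in resident and 552121 or fewer in subset libraries. The labelled cell type was only partly borne out: of 11 eosinophil markers, Epx (eosinophil peroxidase) and Il5ra (the IL-5 receptor alpha chain) had 0 counts in both subsets, though Epx was also at 0 in 3 of 4 and Il5ra in 2 of 4 resident libraries, and Prg3 had 0 in all 8. Prg2, which encodes the granule major basic protein, went the other way in SiglecFhi/CD101+ only. It had 355 counts in the resident group, 458 for SiglecFhi/CD101+ and 4 for Siglec-Fint/CD101-. Its log2 fold change against resident libraries was 4.00 ± 0.95 for SiglecFhi/CD101+ (adjusted p = 0.118 by edgeR, called higher by DESeq2). For Siglec-Fint/CD101- it was -2.68 ± 1.21 (edgeR adjusted p = 0.311). SiglecFhi/CD101+ replicates 1 and 2 differed widely, at 38.7 and 235 CPM of Prg2. Of the other markers, Ear2 and Alox15 had counts in all 8 libraries. Ear2 was at 125 to 291 CPM in resident, 153 and 92.5 CPM in Siglec-Fint/CD101- and 46.7 and 120 CPM in SiglecFhi/CD101+ libraries. Alox15 lay higher in SiglecFhi/CD101+ (40.3 and 60.4 CPM) than in resident libraries (0.167 to 14.4 CPM, edgeR adjusted p = 0.246). It was at 10.2 and 45.9 CPM in Siglec-Fint/CD101- libraries. Ear6 had 46 counts in the resident group and 118 for Siglec-Fint/CD101-, each from 1 library. The 11 markers summed to 188 to 455 CPM in resident, 164 and 296 CPM in Siglec-Fint/CD101- and 149 and 450 CPM in SiglecFhi/CD101+ libraries. The genes the sort was named for went partly against the labels: no Siglecf count (0) was found for either Siglec-Fint/CD101- library, beside 19 and 44 for SiglecFhi/CD101+, and Cd101 had 2 and 1 counts in the libraries labelled SiglecFhi/CD101+, 0 and 1 in Siglec-Fint/CD101- and 60 to 504 in resident libraries. Groups are called by their labels throughout. CPM here are counts divided by the library size after TMM scaling, the usual unit of RNA-seq levels. In such bulk samples, fewer cells of a type and less RNA per cell cannot be told apart.

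The 10 members together made up 0.0406% to 0.344% of all counts in resident libraries and 0.0874% to 0.136% in subset libraries. Of the counts outside the mitochondrial genome they made up 0.0945% to 0.561% in resident libraries, 0.33% and 0.543% for Siglec-Fint/CD101- replicates, and 0.645% and 0.462% for SiglecFhi/CD101+ replicates. The subset libraries thus lay within the resident range, except SiglecFhi/CD101+ replicate 1, which lay above it. The resident libraries differed widely among themselves: replicate 5 was highest for 10 of 10 members, and replicate 4 was lowest for 9 of 10, with Kdr lowest in replicate 6. The highest resident library exceeded the lowest by 2.76-fold for Pecam1, which spread least, and by 13.8-fold for Col1a2, which spread most.

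**Figure D1:**
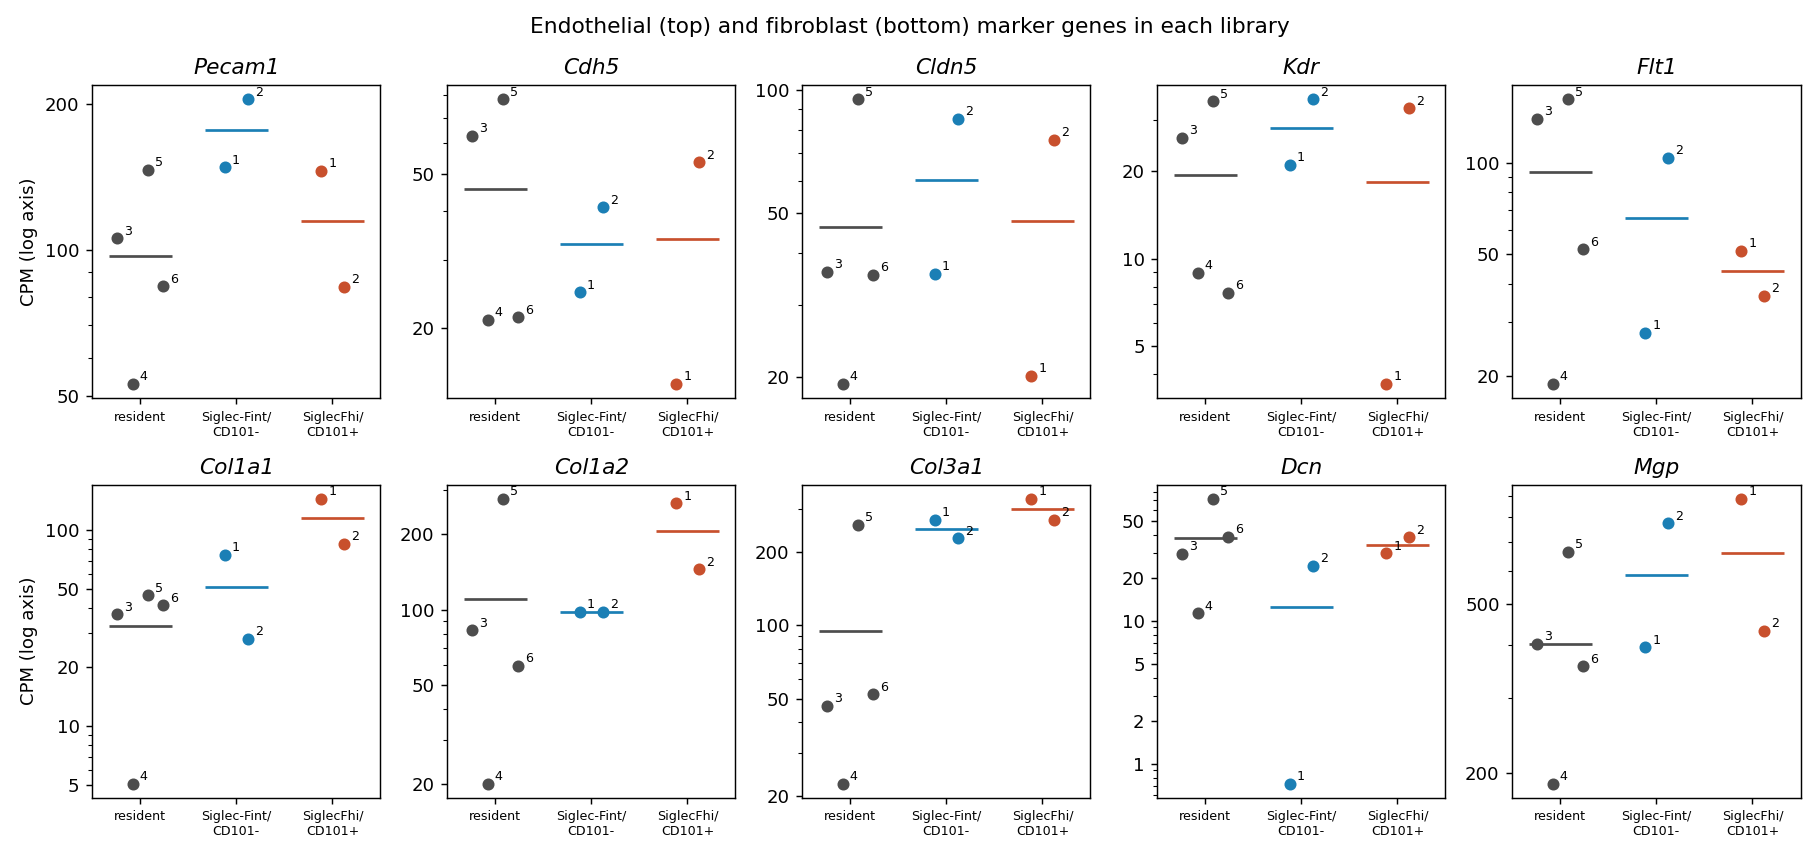
Level of each of the 10 marker genes (CPM on a log axis) in every library, by group; digits are replicate numbers and horizontal lines are group means. Resident replicate 5 is the highest resident library in all 10 panels, and Col1a1 in the SiglecFhi/CD101+ libraries (145 and 85.4 CPM) lies above all resident libraries.

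Junction and adhesion genes of endothelium showed no difference between groups that passed the test. Pecam1 encodes the adhesion molecule CD31. It was at 106, 53.1, 147 and 84.3 CPM in resident replicates 3 to 6, at 148 and 205 CPM in Siglec-Fint/CD101- and at 146 and 84.2 CPM in SiglecFhi/CD101+ replicates 1 and 2. The Siglec-Fint/CD101- libraries were above all resident libraries, by a narrow margin over resident replicate 5, and the SiglecFhi/CD101+ libraries lay within the resident range. The log2 fold change of Siglec-Fint/CD101- against resident libraries was 0.86 ± 0.58 (SE; adjusted p = 0.433 by edgeR's quasi-likelihood test). Cdh5 encodes VE-cadherin, the adherens junction cadherin of endothelium, and was at 62.8, 21.0, 78.1 and 21.3 CPM in resident, 24.7 and 41.0 CPM in Siglec-Fint/CD101- and 14.3 and 53.7 CPM in SiglecFhi/CD101+ libraries. Resident libraries fell into a higher and a lower pair, and both subsets overlapped them. Cldn5 encodes claudin-5, the main claudin of endothelial tight junctions, and was at 36.1, 19.3, 94.9 and 35.4 CPM in resident, 35.6 and 85.1 CPM in Siglec-Fint/CD101- and 20.1 and 75.6 CPM in SiglecFhi/CD101+ libraries. The 2 libraries of each subset differed more from each other than their mean did from the resident mean.

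The VEGF receptor genes also overlapped between all groups. Kdr encodes VEGFR2, the main signalling receptor for VEGF-A, and was at 26.1, 8.96, 34.8 and 7.65 CPM in resident, 21.1 and 35.4 CPM in Siglec-Fint/CD101- and 3.71 and 32.9 CPM in SiglecFhi/CD101+ libraries. The lowest value rested on 7 counts, with an exact 95% counting interval of 1.49 to 7.65 CPM, which covers counting error only. Flt1 encodes VEGFR1, which binds VEGF tightly but signals weakly, and was at 139, 18.8, 162 and 51.9 CPM in resident, 27.6 and 104 CPM in Siglec-Fint/CD101- and 51.4 and 36.6 CPM in SiglecFhi/CD101+ libraries. Its mean was lowest in SiglecFhi/CD101+ (44.0 CPM), middle in Siglec-Fint/CD101- (65.7 CPM) and highest in resident libraries (93.0 CPM), and no neighbours in that order differed beyond their spread. Against resident libraries the log2 fold change was -1.08 ± 0.91 (SE; edgeR adjusted p = 0.556) in SiglecFhi/CD101+ and -0.50 ± 0.88 (edgeR adjusted p = 0.802) in Siglec-Fint/CD101- libraries. The count ratio of Flt1 to Kdr, which needs no scaling between libraries, was 2.096 to 6.79 in resident, 1.31 and 2.93 in both Siglec-Fint/CD101- replicates, and 13.9 and 1.11 among SiglecFhi/CD101+ replicates, so the 2 SiglecFhi/CD101+ libraries lay at its opposite ends.

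Among the fibroblast members, the collagen chains Col1a1 and Col3a1 lay higher in SiglecFhi/CD101+ than in resident libraries without overlap, but neither difference passed the test. Col1a1 encodes the alpha-1 chain of type I collagen and was at 37.3, 5.11, 46.7 and 41.4 CPM in resident, 74.9 and 27.9 CPM in Siglec-Fint/CD101- and 145 and 85.4 CPM in SiglecFhi/CD101+ libraries. Both SiglecFhi/CD101+ libraries were above all 6 others, of which Siglec-Fint/CD101- replicate 1 came nearest. The log2 fold change against resident libraries was 1.82 ± 0.84 (SE; approximate 95% interval 0.02 to 3.62; edgeR adjusted p = 0.294). Col3a1 encodes the chain of type III collagen and was at 46.8, 22.5, 257 and 52.1 CPM in resident, 270.5 and 227 CPM in Siglec-Fint/CD101- and 329 and 270.2 CPM in SiglecFhi/CD101+ libraries. Resident replicate 5 stood with the subsets, and the other 3 resident libraries were lower than all subset libraries. The log2 fold change was 1.66 ± 0.73 for SiglecFhi/CD101+ against resident libraries (edgeR adjusted p = 0.279) and 1.39 ± 0.73 for Siglec-Fint/CD101- against resident libraries (edgeR adjusted p = 0.345). Without resident replicate 5 these were 3.01 and 2.65, with adjusted p-values of 0.101 and 0.224 by edgeR.

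The other fibroblast members overlapped between resident and both subset groups. Col1a2 encodes the alpha-2 chain that pairs with that of Col1a1, and was at 82.7, 20.1, 277 and 59.6 CPM in resident, 98.2 and 98.1 CPM in Siglec-Fint/CD101- and 266 and 145 CPM in SiglecFhi/CD101+ libraries. Both SiglecFhi/CD101+ libraries were above both Siglec-Fint/CD101- libraries, with resident libraries on either side. Dcn encodes decorin, a proteoglycan that binds collagen fibrils, and was at 29.6, 11.3, 71.4 and 38.6 CPM in resident, 0.727 and 24.2 CPM in Siglec-Fint/CD101- and 29.7 and 38.4 CPM in SiglecFhi/CD101+ libraries. Siglec-Fint/CD101- replicate 1 had 1 Dcn count (exact 95% counting interval 0.0184 to 4.05 CPM), below every other library, although its Col3a1 level was among the highest. Mgp encodes matrix Gla protein, a secreted inhibitor of calcification that vascular and stromal cells also make, and was at 403, 189, 663 and 357 CPM in resident, 396 and 775 CPM in Siglec-Fint/CD101- and 884 and 432 CPM in SiglecFhi/CD101+ libraries. The log2 fold change of Mgp against resident libraries was 0.71 ± 0.49 in SiglecFhi/CD101+ (edgeR adjusted p = 0.455) and 0.54 ± 0.49 in Siglec-Fint/CD101- libraries (edgeR adjusted p = 0.578).

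Set side by side, 0 of 10 members passed edgeR's test, adjusted by Benjamini-Hochberg over all genes, in any comparison, and DESeq2 also called 0. In SiglecFhi/CD101+ against resident libraries, edgeR called 0.0254% of the 11828 genes tested. At an unadjusted p under 0.05 there were 2 of 10 members, against 16.8% of all genes. The groups did not overlap for 2 of 10 members, both higher, where 6.78% of all genes were higher and 27.4% lower without overlap. Log2 fold changes were positive for 6 of 10 members and 36.1% of all genes. The median log2 fold change was -0.08 for the 5 endothelial and 0.90 for the 5 fibroblast members, beside -0.72 for all genes. By DESeq2, over the 21197 genes with a count, these medians were 0.36, 1.32 and 0.24. The shares and medians of all genes are no matched background for the members, which had counts in every library. Genes could pass the filter through the deeper resident libraries, and 5490 passed with the subset libraries alone.

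In Siglec-Fint/CD101- against resident libraries, which share the resident libraries with the comparison before, edgeR called 0.0592% of genes. At an unadjusted p under 0.05 there were 0 of 10 members, against 15.7% of all genes, and Pecam1 alone did not overlap (4.46% of genes were higher and 29.3% lower without overlap). Log2 fold changes were positive for 6 of 10 members and 33% of all genes. The medians were 0.38 for endothelial and 0.54 for fibroblast members, beside -0.997 for all genes, and by DESeq2 they were 0.72, 0.88 and 0. Between the subsets, edgeR called 0.00845% of genes, and 0 of 10 members had an unadjusted p under 0.05, against 17.9% of all genes. SiglecFhi/CD101+ libraries were higher without overlap for Col1a1, Col1a2 and Dcn and lower for Pecam1, where 15.8% and 11.9% of all genes were higher and lower in this way. All 5 fibroblast members had positive log2 fold changes here (0.17 to 1.44, median 1.07) and 4 of 5 endothelial members negative ones (median -0.58), with all genes at 0 and 49.3% of them positive. The precision differed between members: in SiglecFhi/CD101+ against resident libraries the 95% interval ran from -2.64 to 2.48 for Kdr, the widest, and from -0.34 to 1.75 for Mgp, the narrowest.

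**Figure D2:**
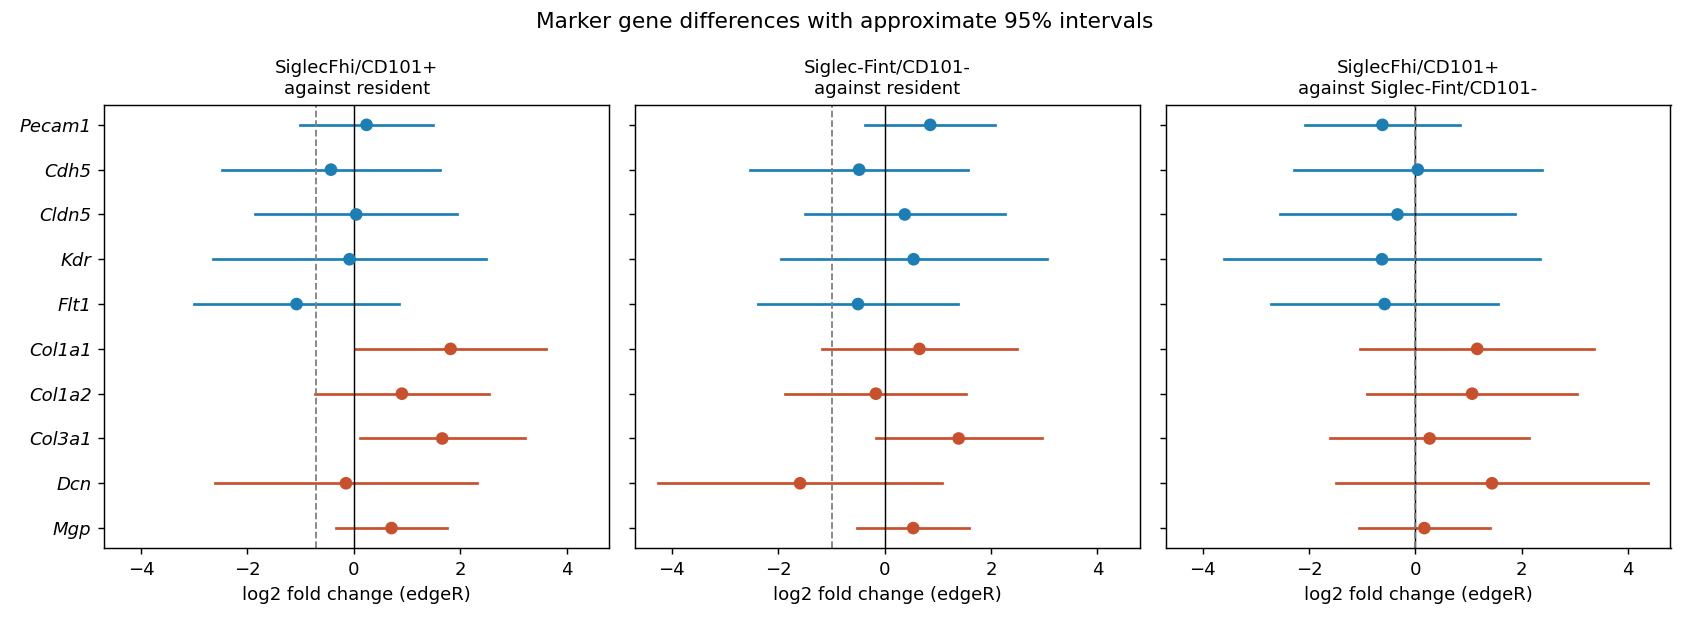
Log2 fold change of each marker gene by edgeR (points) with its approximate 95% interval (lines) in the 3 comparisons; endothelial genes are blue, fibroblast genes orange, and the dashed line is the median of all 11828 tested genes. The intervals of Col1a1 and Col3a1 in SiglecFhi/CD101+ against resident libraries start just above 0, at 0.02 and 0.11, and all other intervals span 0.

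Summed over 5 genes each, the endothelial level was 370.2, 121, 516 and 201 CPM in resident, 257 and 470.0 CPM in Siglec-Fint/CD101- and 235 and 283 CPM in SiglecFhi/CD101+ libraries. The fibroblast level was 599, 248, 1316 and 549 CPM in resident, 840 and 1152 CPM in Siglec-Fint/CD101- and 1654 and 971 CPM in SiglecFhi/CD101+ libraries. The ratio of the fibroblast to the endothelial sum, which does not depend on scaling, was 1.62 to 2.74 in resident libraries, 3.26 and 2.45 for Siglec-Fint/CD101- replicates, and 7.02 and 3.43 for SiglecFhi/CD101+ replicates. Both SiglecFhi/CD101+ values were above those of all 6 other libraries, and Siglec-Fint/CD101- values overlapped resident ones; this ratio was chosen with the values known and was not tested. The 3 collagen genes made up 19.2% to 44.2% of the fibroblast sum in resident libraries, 52.8% and 30.6% for Siglec-Fint/CD101- replicates, and 44.7% and 51.5% for SiglecFhi/CD101+ replicates. Mgp alone made up 44.5% to 76.2% of the fibroblast sum over all libraries, and Pecam1 28.4% to 61.9% of the endothelial sum. The Pecam1 share was highest in SiglecFhi/CD101+ replicate 1, the library with the ratio of 7.02. Both sums and their ratio thus lean on these genes.

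**Figure D3:**
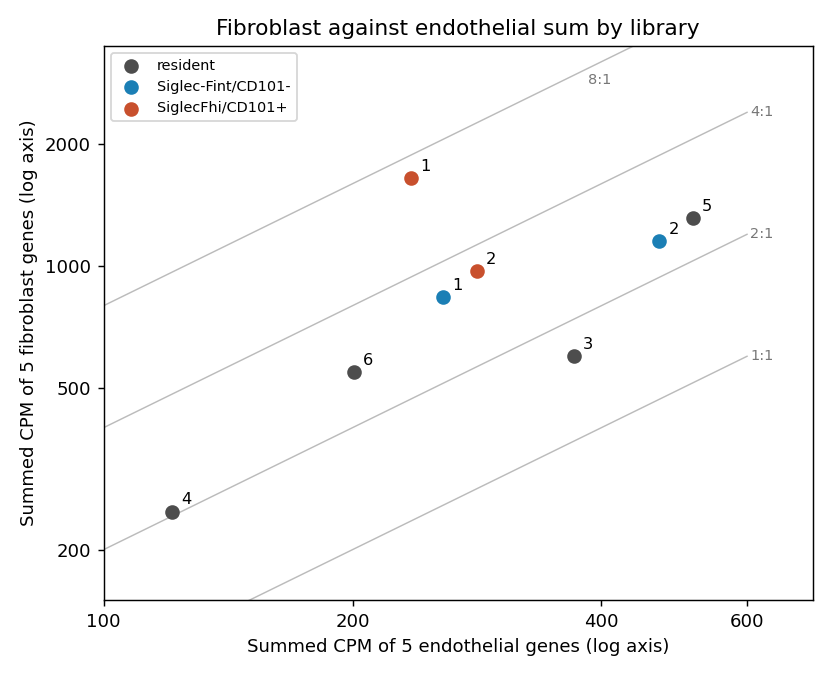
Summed CPM of the 5 fibroblast genes against that of the 5 endothelial genes, both on log axes, with 1 point per library, replicate numbers beside the points and grey lines of equal ratio. The SiglecFhi/CD101+ libraries have ratios of 7.02 and 3.43, and resident libraries 1.62 to 2.74.

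Across the 8 libraries, pairs of members were compared on the log2 CPM scale. The median Pearson r was 0.57 over the 10 endothelial pairs (0.19 to 0.89, highest for Cdh5 with Kdr) and 0.74 over the 10 fibroblast pairs (-0.04 for Col3a1 with Dcn to 0.87 for Col1a2 with Mgp). Over the 25 mixed pairs it was 0.30, with Pecam1 and Mgp at 0.87. The log2 sums had a Pearson r of 0.70 and a Spearman rho of 0.57 over 8 libraries, and r was 0.13 without resident replicates 4 and 5, so the relation rested on those libraries. These values share libraries and depth and are descriptions only. The genes whose log2 CPM followed the endothelial sum most closely, of 5762 candidates, were Plpp1 (Pearson r 0.95), Scgb1a1 (0.95), Cbr2 (0.95), Bcam (0.93) and Epas1 (0.93), with Spearman rho between 0.76 and 1. For the fibroblast sum they were Eng (0.99), Ece1 (0.97), Slc34a2 (0.95), Ptprf (0.94) and Sftpb (0.94), with rho of 0.86 to 1. Eng encodes endoglin, a receptor of the TGF-beta family, and is in the list of pan-endothelial genes used here. The gene closest to the fibroblast sum was thus one from that list, which does not show which cells its RNA came from. Scgb1a1 encodes the club cell secretoglobin of airways, and Slc34a2 and Sftpb, a phosphate transporter and a surfactant protein, mark alveolar type II cells.

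Markers of other cells also varied between the resident libraries. The 12 epithelial markers, all with counts in every group, summed to 6158, 1162, 14001 and 1616 CPM in resident replicates 3 to 6, in which replicate 5 was again highest and replicate 4 lowest. They were at 4927 and 8121 CPM in Siglec-Fint/CD101- libraries, and SiglecFhi/CD101+ libraries were at 5455 and 5050.0 CPM. Scgb1a1 alone took 500.5 to 7562 CPM of this sum in resident libraries. Ager, Sftpa1 and Sftpd kept its order of resident libraries, while Cdh1, Epcam and Krt8 did not. Sftpa1, a surfactant protein gene, was at 148, 22.3, 459 and 66.8 CPM in resident libraries, 768 and 602 CPM in Siglec-Fint/CD101- libraries and 681 and 653 CPM in SiglecFhi/CD101+ libraries. As with Col3a1 in SiglecFhi/CD101+ libraries, both subsets were above all resident libraries, of which replicate 5 was highest. The log2 fold changes of Sftpa1 against resident libraries were 1.94 ± 0.74 in SiglecFhi/CD101+ (edgeR adjusted p = 0.239) and 1.98 ± 0.74 in Siglec-Fint/CD101- libraries (edgeR adjusted p = 0.289). Sftpd, of the same family, had log2 fold changes of 1.66 ± 1.11 and 1.69 ± 1.11 (edgeR adjusted p = 0.438 and 0.425). Of the 12 epithelial markers, 5 had positive log2 fold changes in each of these comparisons. Their medians were -0.52 in SiglecFhi/CD101+ and -0.17 in Siglec-Fint/CD101- libraries. Cdh1 had 1415 counts in the resident group and 1 for SiglecFhi/CD101+ (edgeR adjusted p = 0.13), and DESeq2 called it lower. In Siglec-Fint/CD101- libraries Cdh1 was not lower, at 78.5 and 24.2 CPM beside a resident mean of 27.6 CPM. Epcam had log2 fold changes of -2.91 and -3.52 (edgeR adjusted p = 0.394 and 0.344). The sum of the 11 eosinophil markers was lowest in resident replicate 5 (188 CPM) and highest in replicate 4 (455 CPM). This was opposite to the epithelial sum at these extremes, but not between replicates 3 and 6. Ear2 took most of it, at 225, 291, 125 and 211 CPM in resident replicates 3 to 6. The share of mitochondrial counts was also lowest in resident replicate 5, at 38.6%. The part of these genes and shares in the members' levels was not tested. Mesothelial markers were near 0, with none of the 4 genes detected in resident libraries and at most 0.727 CPM in a subset library. The 10 markers of mural and smooth muscle cells summed to 71.1 to 181 CPM in resident, 26.2 and 364 CPM in Siglec-Fint/CD101- and 157 and 143 CPM in SiglecFhi/CD101+ libraries, and they did not vary as one. Notch3, Higd1b and Rgs5, which define pericytes and vascular smooth muscle, had 245, 116 and 9 counts in the resident group and 0 in both subsets. Taking 3 counts for a whole group as its floor, Notch3 was at least 6.00-fold lower in SiglecFhi/CD101+ and 5.08-fold in Siglec-Fint/CD101- libraries. For Higd1b these bounds were 2.84-fold and 2.41-fold. Such bounds, here and below, cover counting error only and not the spread between libraries, and none of these differences passed edgeR's test. A gene could be at 0 in 1 library of a group and not in another, as Col5a1 was in SiglecFhi/CD101+ (0 and 165 counts). All 9 Rgs5 counts came from resident replicate 5 (0.631 CPM), below the subset floors of 0.851 and 1.00 CPM, so its 0 there shows no difference. Cspg4, the proteoglycan NG2 of pericytes, had 31 counts in the resident group and 54 for SiglecFhi/CD101+, all of them in replicate 1 (log2 fold change 3.88 ± 1.94; edgeR adjusted p = 0.319). Acta2, the smooth muscle actin gene, averaged 66.2 ± 39.2 CPM over the resident group, with 0.727 and 301 CPM for the Siglec-Fint/CD101- replicates (edgeR adjusted p = 0.586).

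**Figure D4:**
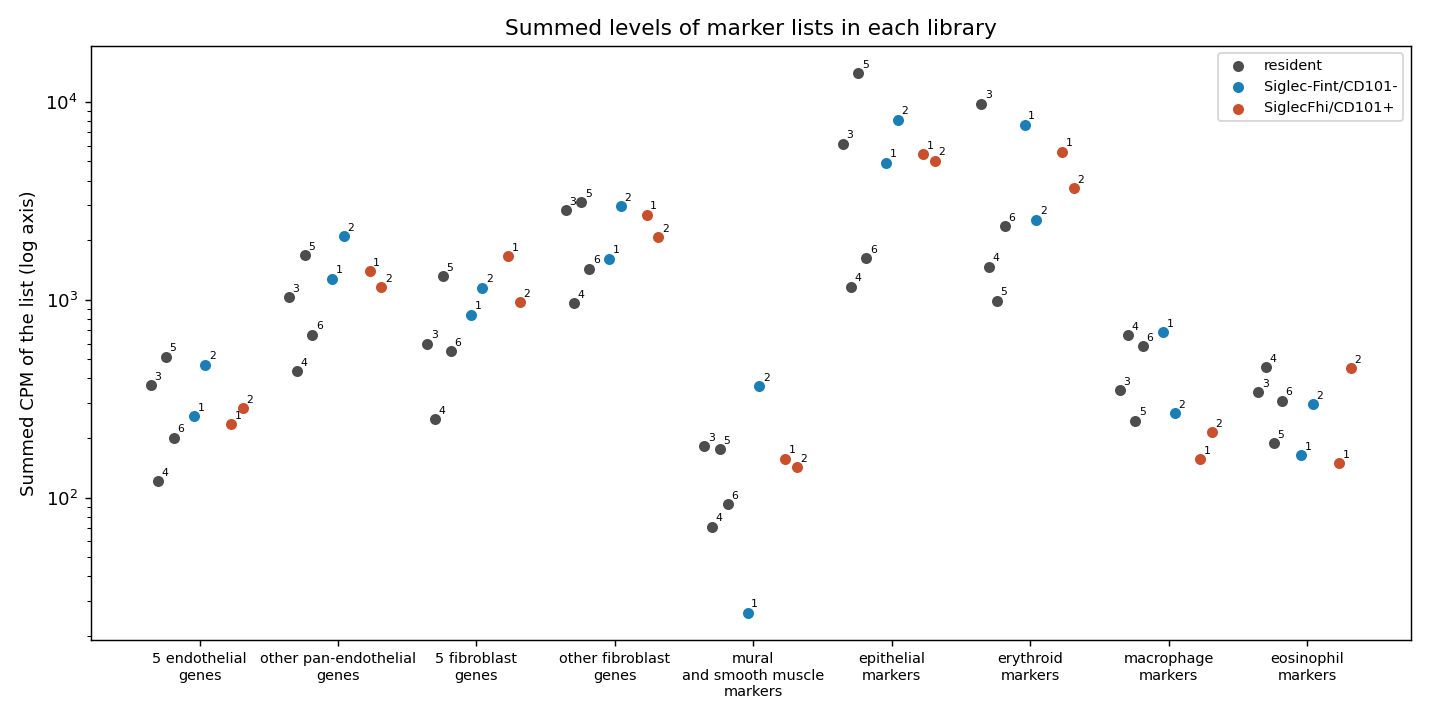
Summed CPM (log axis) of marker lists in each library, coloured by group with replicate numbers beside the points. Within resident libraries, replicates 3 and 5 are above replicates 4 and 6 in both endothelial lists, both fibroblast lists, mural and epithelial markers, and replicate 5 is lowest in eosinophil markers (188 CPM).

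Further genes of endothelium, of fibroblasts and of their signals, with markers of other cells, gave 198 list genes, of which 173 were tested. By edgeR, 0 passed in any comparison. At an unadjusted p under 0.05 there were 26 (15.0%) in SiglecFhi/CD101+ against resident, 28 (16.2%) in Siglec-Fint/CD101- against resident and 25 (14.5%) in the comparison of subsets, near the shares of all genes given above. Of the 194 list genes with a count, DESeq2 called 16 (8.25%), 5 (2.58%) and 12 (6.19%), where it called 5.1%, 2.94% and 5.33% of all 21197 genes with a count. In the paragraphs that follow, all adjusted p-values are those of edgeR, and folds given as "at least" cover counting error only.

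Of 23 other pan-endothelial genes, 22 were tested, and their median log2 fold changes were 0.57 in SiglecFhi/CD101+ and 0.51 in Siglec-Fint/CD101- against resident libraries, beside -0.72 and -0.997 for all genes. Tie1, an endothelial receptor tyrosine kinase of the angiopoietin system, was at 115 ± 62.5 CPM in resident (SD, n = 4) and 401 ± 129 CPM in Siglec-Fint/CD101- libraries (n = 2), a log2 fold change of 1.80 ± 0.67 (edgeR adjusted p = 0.289). Vwf, which encodes von Willebrand factor of larger vessels and platelets, was at 26.04 ± 20.4 and 89.9 ± 33.6 CPM in the same groups (edgeR adjusted p = 0.326). Esam, an endothelial junction molecule, had 752 counts in the resident group and 1 count for SiglecFhi/CD101+ (edgeR adjusted p = 0.223), and DESeq2 called it lower. The endothelial transcription factor gene Erg was at 25.4 ± 16.7 CPM in resident libraries and 4.82 ± 0.076 CPM in those of SiglecFhi/CD101+ (edgeR adjusted p = 0.324). Of 17 genes that mark vessel types, 13 were tested, with medians of -1.18 and 0.28. Lyve1, a hyaluronan receptor of lymphatic vessels and some macrophages, was at 115 ± 59.0 CPM in resident, 298 ± 219 CPM in SiglecFhi/CD101+ and 292 ± 149 CPM in Siglec-Fint/CD101- libraries (edgeR adjusted p = 0.277 and 0.31). Prox1, the regulator of lymphatic identity, had 0 counts in Siglec-Fint/CD101- libraries, in resident replicates 3 and 5 and in SiglecFhi/CD101+ replicate 2. At a floor of 3 counts it was at least 3.36-fold lower in Siglec-Fint/CD101- than in resident libraries (edgeR adjusted p = 0.404). Without resident replicate 4 this bound was 1.24-fold. Kit, a receptor of capillary endothelium and mast cells, had 873 counts in the resident group and 2 for SiglecFhi/CD101+ (edgeR adjusted p = 0.21), and DESeq2 called it lower.

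Of 14 genes of VEGF, angiopoietin and Notch signalling, 11 were tested, with medians of -0.35 in SiglecFhi/CD101+ and -1.87 in Siglec-Fint/CD101- against resident libraries. Among receptors, Notch1 had 400 counts in the resident group and 0 for Siglec-Fint/CD101-, at least 8.29-fold lower taking 3 counts for the whole group as its floor (edgeR adjusted p = 0.289). Notch4, the Notch receptor of endothelium, was at 5.28 ± 7.46 CPM in Siglec-Fint/CD101- and 96.4 ± 92.2 CPM in SiglecFhi/CD101+ libraries (edgeR adjusted p = 0.242). With genes at 0 set to their bound, the median of the list in Siglec-Fint/CD101- libraries was -1.64, in place of the fitted -1.87. Among ligands, Angpt1, which encodes angiopoietin-1, had 153 counts in the resident group and 0 for Siglec-Fint/CD101-, at least 3.17-fold lower (edgeR adjusted p = 0.316), with 81 of the 153 counts in resident replicate 3. Without that library the bound was 1.71-fold. Vegfb, a ligand of the Flt1 product, was at 5.40 ± 3.43 CPM in resident libraries and 22.9 ± 32.3 CPM in those of SiglecFhi/CD101+ (edgeR adjusted p = 0.549). DESeq2 called 0 of these genes in the 3 comparisons.

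Of 21 other collagen and collagen assembly genes, 20 were tested, with medians of 0.21 in SiglecFhi/CD101+ and -1.16 in Siglec-Fint/CD101- against resident libraries, and 0.54 between the subsets; with genes at 0 set to their bound the second was -0.95. Col6a2, a chain of the microfibrillar type VI collagen, was at 42.4 ± 39.1 CPM in resident, 241 ± 93.3 CPM in SiglecFhi/CD101+ (log2 fold change 2.51 ± 0.79; edgeR adjusted p = 0.202) and 180 ± 180.3 CPM in Siglec-Fint/CD101- libraries (2.08 ± 0.79; edgeR adjusted p = 0.292). Col15a1, a basement membrane zone collagen, had 707 counts in the resident group and 0 for SiglecFhi/CD101+, at least 17.3-fold lower (edgeR adjusted p = 0.206), and DESeq2 called it lower. Adamts2 encodes the protease that trims the amino end of fibrillar procollagens. It had 573 counts in resident (mean 11.5 CPM), 79 in SiglecFhi/CD101+ (mean 22.9 CPM) and 0 in Siglec-Fint/CD101- libraries. The last lay below resident libraries by at least 11.9-fold (edgeR adjusted p = 0.288) and below the other subset by at least 22.3-fold (edgeR adjusted p = 0.214). Col5a1, a minor fibrillar chain, had 465, 165 and 0 counts in these groups, with means of 11.9 and 50.3 CPM in the resident and SiglecFhi/CD101+ libraries. The Siglec-Fint/CD101- group lay below the resident group by at least 9.64-fold (edgeR adjusted p = 0.292). All Col5a1 counts of the SiglecFhi/CD101+ group came from replicate 2, where it was at 101 CPM. DESeq2 called Adamts2 and Col5a1 in both comparisons that involve Siglec-Fint/CD101- libraries.

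Of 14 proteoglycan and elastic fibre genes, 12 were tested, with medians of 0.41 and 0.57 against resident libraries in SiglecFhi/CD101+ and Siglec-Fint/CD101- libraries. Fbn1, which encodes the microfibril protein fibrillin-1, was at 8.08 ± 7.10 CPM in resident, 46.7 ± 15.0 CPM in SiglecFhi/CD101+ (edgeR adjusted p = 0.324) and 2.54 ± 2.56 CPM in Siglec-Fint/CD101- libraries. Timp3, an inhibitor of matrix metalloproteinases, was at 104 ± 69.3 CPM in resident libraries and 22.5 ± 25.9 CPM in those of SiglecFhi/CD101+ (edgeR adjusted p = 0.275). Fn1, which encodes fibronectin, was at 20.8 ± 3.81 CPM in resident libraries and 59.6 ± 23.7 CPM in those of Siglec-Fint/CD101- (edgeR adjusted p = 0.374). DESeq2 called Lum, the gene of the collagen-binding proteoglycan lumican, higher in SiglecFhi/CD101+ than in resident libraries, on 40 counts against 4, of which 36 came from replicate 2, and edgeR did not test it.

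All 14 other fibroblast genes were tested, with medians of 0.44 and -1.18 against resident libraries in SiglecFhi/CD101+ and Siglec-Fint/CD101- libraries, the second -0.74 with genes at 0 set to their bound. Pdgfra, the platelet-derived growth factor receptor of fibroblasts, was at 11.9 ± 2.31 CPM in resident, 44.7 ± 38.5 CPM in SiglecFhi/CD101+ (edgeR adjusted p = 0.336) and 77.6 ± 97.4 CPM in Siglec-Fint/CD101- libraries (edgeR adjusted p = 0.289). Dpt, which encodes the matrix protein dermatopontin, was at 17.0 ± 6.57 CPM in resident libraries and 53.2 ± 1.96 CPM in those of SiglecFhi/CD101+ (edgeR adjusted p = 0.384). Cygb, a globin of fibroblasts and stellate cells, had 985 counts in resident, 119 in SiglecFhi/CD101+ and 0 in Siglec-Fint/CD101- libraries, at least 20.4-fold lower in the last than in resident (at least 12.1-fold without resident replicate 5; edgeR adjusted p = 0.288), and Thy1, a surface glycoprotein of fibroblasts and T cells, had 407, 100 and 0 counts (at least 8.44-fold lower; edgeR adjusted p = 0.312). All 100 Thy1 counts of the SiglecFhi/CD101+ group and 108 of its 119 Cygb counts came from replicate 1, and resident replicate 4 had 0 Cygb counts. Among 15 genes of TGF-beta and PDGF signals, all tested, the medians were -0.90 and -0.98, below 0 like those of all genes. Tgfb1, the leukocyte and stromal ligand, was at 61.5 ± 19.6 CPM in resident, 24.5 ± 3.23 CPM in SiglecFhi/CD101+ (edgeR adjusted p = 0.458) and 11.6 ± 9.34 CPM in Siglec-Fint/CD101- libraries (edgeR adjusted p = 0.298). Ccn2, a matrix-associated target of TGF-beta, had 428 counts in the resident group and 0 for SiglecFhi/CD101+, at least 10.5-fold lower (edgeR adjusted p = 0.249).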

How the data were processed

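Per the labels, RNA of sorted eosinophils was made into CEL-Seq libraries and read on an Illumina instrument. The authors deposited 1 table of raw whole-number counts per Ensembl gene for each of the 8 libraries. Tools named in the submitters' processing notes are TopHat2 2.1.0, Bowtie2 2.2.6, HTSeq 0.6.1, cutadapt 1.10, Trim Galore, FastQC 0.11.5 and DESeq2 1.28.0. Genome build, strand setting and any collapsing of molecular identifiers: not given in the sources used here. Counts of amplified reads, if identifiers were not collapsed, carry extra spread. Groups came from sample titles. Symbols were matched for 54409 of 54446 identifiers.

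Counts were fitted in R 4.3.3 with edgeR 4.0.16: TMM, filterByExpr, group means over all 8 libraries, robust quasi-likelihood tests, Benjamini-Hochberg adjustment over 11828 genes, and a call at an adjusted p under 0.05. The common biological coefficient of variation was 1.12. The SE was taken from the F statistic (log2 fold change over its root), and 95% intervals use its degrees of freedom. The procedure was tested on simulated data. The members, the 17 further lists and the tests were chosen with earlier results of these data known. Named genes are the members, up to 4 genes with the smallest p per list and comparison, and the 5 genes of at least median level closest in Pearson r to each sum (log2 CPM, prior count 2); Lum, Siglecf, Cd101 and genes named only for 0 counts were chosen after their values were seen. Alternatives were RLE, counts outside the 37 mitochondrial genes, no filter, DESeq2 1.42.0, a fit of only the groups compared, the replicate number as a block, and each library left out in turn, also, chosen after seeing the data, for the bounds of genes at 0; sums were also scaled by library totals alone.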

Additional observations from a re-analysis of the deposited data

Results flagged for a closer look

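Within the 4 resident libraries, Col3a1 in replicate 5 stood apart at 257 CPM, with a gap to the nearest library that took 0.874 of the group's range. It was the 1 such value among the 10 genes and 2 sums examined. Chance gives about 1 in 20 for each independent item. These items share libraries, and the sums hold the same genes, so that rate is no measure for them.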

How the results depend on the processing

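Of the members, 0 were called by edgeR or DESeq2 under the alternatives run. The lowest adjusted p of a member was 0.101, for Col3a1 in SiglecFhi/CD101+ against resident libraries without resident replicate 5 (edgeR). The number of genes called in SiglecFhi/CD101+ against resident, Siglec-Fint/CD101- against resident and SiglecFhi/CD101+ against Siglec-Fint/CD101- was 3, 7 and 1, with no filter 370, 136 and 85, with DESeq2 1082, 623 and 1129, and with only the compared groups 1, 0 and 0. Leaving out 1 library gave 1 to 133, 0 to 9 and 0 to 2, with 131 and 133 in the first comparison without Siglec-Fint/CD101- replicates 1 and 2. The subsets share replicate numbers but no stated source, and the replicate differences of the subsets correlated at 0.0066; a replicate block over the 4 subset libraries gave 4 calls and turned Cdh5 to -0.059. Resident libraries share no replicate number with them.

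Signs of log2 fold changes turned as follows. In SiglecFhi/CD101+ against resident libraries, RLE gave 0.024 for Cdh5, 0.38 for Kdr and 0.30 for Dcn, DESeq2 gave 0.011, 0.36 and 0.29, and counts outside the mitochondrial genome gave 0.013 for Kdr. In Siglec-Fint/CD101- against resident libraries, RLE gave 0.18 and DESeq2 0.17 for Col1a2. RLE moved the median of all genes from -0.72 to -0.26 and from -0.997 to -0.63 in these comparisons. With no filter it was -1.02 and -1.51, and by DESeq2 it was 0.24 and 0, so the distance of the members from it depends on the method. Leaving out 1 library turned Pecam1 (-0.29 to 0.63), Cdh5 (-1.77 to 0.15), Cldn5 (-1.30 to 0.77), Kdr (-2.47 to 0.69) and Dcn (-0.44 to 0.48) in the first comparison. It turned Cldn5 (-0.39 to 1.05), Flt1 (-1.76 to 0.11), Col1a1 (-0.27 to 1.19), Col1a2 (-0.46 to 0.90) and Mgp (-0.040 to 0.94) in the second. Between the subsets it turned Cdh5 (-1.26 to 0.65), Cldn5 (-1.65 to 0.35), Kdr (-2.99 to 0.17), Flt1 (-1.28 to 0.58) and Mgp (-0.49 to 0.65). Col1a1 and Col3a1 stayed positive in SiglecFhi/CD101+ against resident libraries in all alternatives run. The cause of these turns was not tested.

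In CPM of counts outside the mitochondrial genome, the endothelial sum averaged 917, 1154 and 842 and the fibroblast sum 2059, 3158 and 4272 in resident, Siglec-Fint/CD101- and SiglecFhi/CD101+ libraries, since the denominator is smaller. RLE put the endothelial sum of SiglecFhi/CD101+ libraries at 309.8 CPM, and library totals alone put it at 224.7 CPM and the fibroblast sum of Siglec-Fint/CD101- libraries at 691 CPM. Leaving out 1 library gave endothelial sums of 204 to 345, 283 to 469 and 219.9 to 289.6 CPM, and fibroblast sums of 412 to 782, 923 to 1149 and 994 to 1545 CPM, in the same order of groups. An arm left with 1 library was taken to vary like the others.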
